A study of Mus musculus with 38 samples.

Results

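The Zic transcription factors described here are Zic1, Zic2, Zic4 and Zic5, 4 of the 25965 genes in the RNA table, taken by symbol from the RNA and chromatin tables. The members were selected on the RNA level of these same libraries, by the age difference seen in the family, so their RNA differences are given as a description, with no test. Zic proteins are zinc finger transcription factors related to the Gli proteins of the Hedgehog pathway. The family acts in the dorsal neural tube, the midline forebrain, the cerebellum and the meninges, and in the adult subventricular zone (SVZ) its members are known from progenitors of olfactory bulb interneurons. The genes sit in head-to-head pairs, Zic1 with Zic4 and Zic2 with Zic5.

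The cells were neural stem/progenitor cells (NSPCs) grown as neurospheres from the SVZ of unmodified male mice, in a defined medium with epidermal growth factor, basic fibroblast growth factor, B27 and heparin. Young adult NSPCs came from mice of 3 months and aged NSPCs from mice of 18 months. In the strain C57BL/6JBabr there were 3 derivations of each age, each pooling the tissue of several mice, and all were profiled by RNA-seq, bisulphite (BS) and oxidative bisulphite (oxBS) sequencing, and ChIP-seq for H3K4me3 and H3K27me3. In the strain C57BL/10 there was 1 RNA library of each age. The cultures are passaged cells and not the tissue itself.

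The 8 RNA libraries held 16952486 to 41053972 reads, and young adult replicate 2 was the shallowest. The NSPC markers were present throughout, with all 9 of 9 tested. They summed to 6866 to 8563 RPM (reads scaled to the library total) in the 6 C57BL/6JBabr libraries. None was called between the ages by limma, which called 0 of all 14858 genes tested. The markers of fibroblasts of the meninges, a tissue where Zic genes are known to be active, summed to 4.17 to 14.4 RPM in young adult and 4.20 to 9.98 RPM in aged libraries, and Aldh1a2 had no read in those libraries. Choroid plexus markers summed to 2.58 to 3.72 RPM and 1.78 to 2.91 RPM, with 5 of 8 genes at no more than 3 reads in any library and Kl at 0. In bulk RNA, fewer cells of a type and less RNA per cell cannot be told apart.

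The promoters of the pairs are shown first because DNA methylation and both histone marks were measured over them. RefSeq promoters (300 bases around the start, mostly upstream of it, build GRCm38.p6) were held for 3 of the 4 members, Zic1 at chr9:91365719-91366018 on the minus strand, Zic4 at chr9:91368722-91369021 on the plus strand and Zic5 at chr14:122465609-122465908 on the minus strand. Zic2 was not matched. Capitals mark CpG, the dinucleotide that carries 5-methylcytosine (5mC).
Zic1: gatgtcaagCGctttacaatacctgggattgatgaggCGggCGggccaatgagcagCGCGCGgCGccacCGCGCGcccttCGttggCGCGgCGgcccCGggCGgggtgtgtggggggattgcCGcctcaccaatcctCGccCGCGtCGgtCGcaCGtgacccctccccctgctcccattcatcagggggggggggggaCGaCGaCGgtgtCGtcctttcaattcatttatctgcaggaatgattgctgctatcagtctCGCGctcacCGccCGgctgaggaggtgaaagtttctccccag
Zic4: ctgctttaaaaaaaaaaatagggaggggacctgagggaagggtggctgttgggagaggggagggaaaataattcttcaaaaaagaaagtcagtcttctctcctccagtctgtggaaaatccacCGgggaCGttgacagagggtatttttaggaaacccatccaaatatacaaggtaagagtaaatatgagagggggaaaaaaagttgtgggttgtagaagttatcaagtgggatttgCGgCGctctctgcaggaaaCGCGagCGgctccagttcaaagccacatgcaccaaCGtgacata
Zic5: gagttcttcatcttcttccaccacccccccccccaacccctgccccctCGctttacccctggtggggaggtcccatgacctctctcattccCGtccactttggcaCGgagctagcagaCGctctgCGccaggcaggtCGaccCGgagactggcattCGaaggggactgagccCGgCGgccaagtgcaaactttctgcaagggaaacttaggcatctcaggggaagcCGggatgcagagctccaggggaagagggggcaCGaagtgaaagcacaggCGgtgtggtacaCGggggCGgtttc

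The Zic1 promoter held 31 CpGs in its 300 bases, more than 89.4% of the 32851 promoters of that length, and 65.3% of its bases were G or C. The Zic5 promoter held 15 CpGs at 62.7% G or C. The Zic4 promoter held 8 CpGs at 46.0% G or C, beside a median of 7 CpGs over all these promoters. The letters GACCACCCA, a Gli and Zic binding consensus, occurred on neither strand of the 3 windows, and 0.253% of all promoters held them.

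The RNA of the Zic1/Zic4 pair separated the ages in C57BL/6JBabr NSPCs, and that of the Zic2/Zic5 pair did not. All 3 aged libraries lay below all 3 young adult libraries for Zic1 and for Zic4, while the ages overlapped for Zic2 and Zic5. This order of the libraries, all aged below all young adult, was found in 2.01% of all genes of the table and in 2.05% of the genes that passed the filter. Of the 4 members, 3 passed the filter on low values, a mean of at least -2 log2 RPM, and Zic4 did not. Young adult replicate 2 was the highest library for all 4 members. It was also the one library with reads of Slc6a13, a meningeal marker named after its values were seen, at 12 reads, while the other libraries had 0. Foxc1 and Foxc2, of the same marker list, were not highest there. Foxc2 was at -1.76 log2 RPM there and at -1.19 and -0.18 in young adult replicates 1 and 3. Foxc1 was at 1.82 log2 RPM there, at 0.07 and 2.11 in young adult replicates 1 and 3, and at 2.06 in aged replicate 3. The part of meningeal cells in the Zic values was not tested.

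Zic1, which acts in cerebellar and dorsal neural tube progenitors, was at 0.73, 2.70 and 1.05 log2 RPM in the young adult libraries of replicates 1 to 3. It was at -0.86, -2.21 and -1.05 log2 RPM in the aged libraries of replicates 1 to 3. The replicate with the highest young adult level thus had the lowest aged level. The mean difference, aged minus young adult, was -2.87 on the log2 scale (standard error 0.74, n = 3 per age), or 7.29-fold lower. In whole reads, the 3 young adult libraries held 232 and the 3 aged libraries 47, a ratio of young adult to aged RPM of 6.29 with an exact 95% interval of 4.58 to 8.80 that covers counting error only. Without young adult replicate 2 the difference was -2.26.

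Zic4 lies head to head with Zic1, and loss of the pair is known from a cerebellar malformation. Its young adult values were -1.90, 0.62 and -1.25 log2 RPM, from 11, 26 and 11 reads. In aged NSPCs no read fell on Zic4 in replicates 1 and 2, which allows up to 0.0750 and 0.108 RPM at a floor of 3 reads, and 4 reads fell on it in replicate 3. The groups did not overlap. The summed reads gave a ratio of 15.3 with an exact 95% interval of 5.60 to 58.4. This interval covers counting error only, not the spread between libraries, and the gene was chosen on these same values. The difference of means, -3.73 log2 (standard error 1.00, n = 3 per age), depends on the value of 0.9 reads that the table holds for a gene with no read.

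Zic2, in which mutations cause holoprosencephaly, a failure of the forebrain to divide, was at 0.26, 0.92 and 0.10 log2 RPM in young adult and at -0.57, -0.15 and 0.19 log2 RPM in aged NSPCs. Aged replicate 3 lay above young adult replicate 3, so the ages overlapped. The difference was -0.60 (standard error 0.33, n = 3 per age), and -0.35 without young adult replicate 2.

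Zic5, the partner of Zic2, known from neural crest and neural tube closure, was at -0.41, 0.72 and -0.25 log2 RPM in young adult and at -0.46, -0.27 and -0.17 log2 RPM in aged NSPCs. Apart from young adult replicate 2 the libraries of both ages lay within the same narrow range. The difference was -0.33 (standard error 0.36, n = 3 per age), and 0.02 without young adult replicate 2.

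In C57BL/10 NSPCs, with 1 library per age and so no replicate check, the differences were smaller for the Zic1/Zic4 pair. Zic1 was at 1.04 log2 RPM in young adult and 0.08 in aged NSPCs, from 56 and 26 reads, a difference of -0.96, and the 95% interval of its read ratio, young adult to aged, ran from 1.20 to 3.23. Zic4 was at -1.76 and -2.62, from 8 and 4 reads, with an interval of 0.485 to 8.21. Zic2 was at -0.37 and -0.03 log2 RPM, from 21 and 24 reads, with an interval of 0.419 to 1.48. Zic5 was at -0.52 and -1.45, from 19 and 9 reads, with an interval of 0.823 to 4.79. With 1 library per age these values show no direction for any of the 4 genes in this strain, and the intervals cover counting error only. Per the paper these mice were also kept in a separate facility, so strain and housing cannot be told apart. Their effect on the age difference was not tested.

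**Figure D1:**
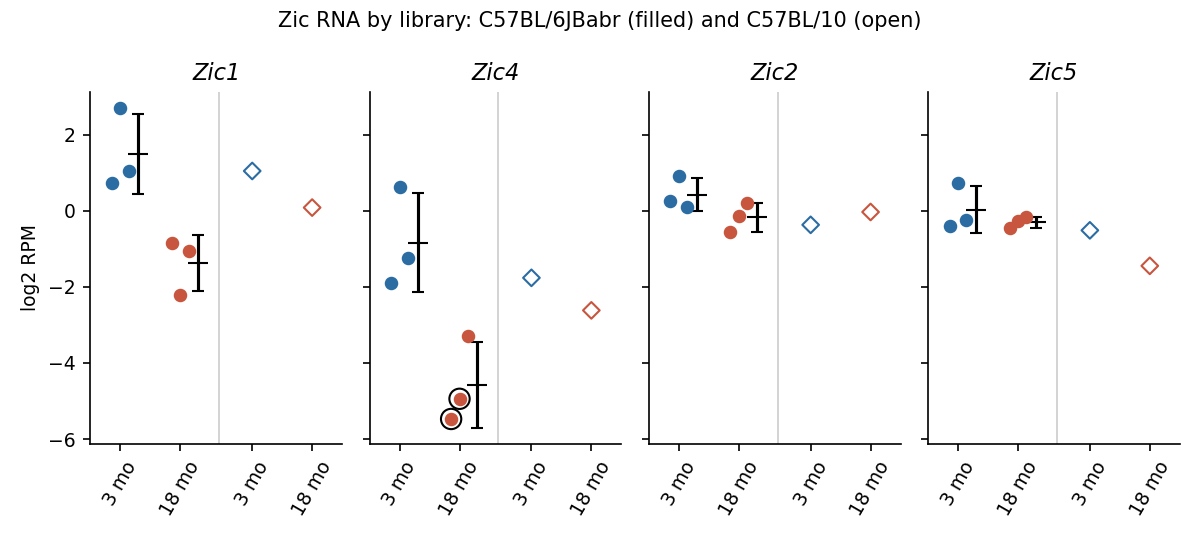
RNA level of each Zic gene in log2 RPM (y axis) for each library by age in months (mo). Filled points are C57BL/6JBabr libraries with their mean and SD (bars, n = 3), open diamonds are the single C57BL/10 libraries, and ringed points are libraries with no read on the gene. Zic1 and Zic4 have all aged C57BL/6JBabr points below all young adult points, and Zic2 and Zic5 overlap.

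Per kb of exon (GENCODE vM21), the order of the young adult means was Zic1, Zic2, Zic5, Zic4, and Zic1 came before Zic2 through young adult replicate 2 alone (1.14 against 0.655 RPM per kb). In replicates 1 and 3 Zic1 was at 0.291 and 0.363 and Zic2 at 0.414 and 0.373 RPM per kb. The young adult means in RPM per kb were 0.598 ± 0.471 for Zic1, 0.481 ± 0.153 for Zic2, 0.222 ± 0.101 for Zic5 and 0.0717 ± 0.0668 for Zic4 (SD, n = 3). Zic1 and Zic2 did not differ beyond these spreads. In aged NSPCs Zic2 was first at 0.315 ± 0.0807 RPM per kb, followed by Zic5 at 0.167 ± 0.0168 and Zic1 at 0.0731 ± 0.0309 (SD, n = 3). These are low levels, of at most 110 reads per library. The exons of Zic1 and Zic4 share 60 bases on opposite strands, and no strand mark is stated for the RNA libraries, so reads there cannot be told apart.

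Across the 8 RNA libraries, which share depth and age differences, Zic1 and Zic4 had a Pearson correlation of 0.931 and Zic2 and Zic5 of 0.625. Across the pairs, Zic2 and Zic4 were at 0.765, Zic1 and Zic2 at 0.605, Zic4 and Zic5 at 0.419 and Zic1 and Zic5 at 0.383. The value of Zic2 and Zic4 was thus above that of the Zic2/Zic5 pair. The 5 tested genes whose pattern was most like the mean of the 4 members were Gm5607 (r = 0.945), 9630013K17Rik (r = 0.912), BC017612 (r = 0.909), C030005K06Rik (r = 0.905) and Kcnn2, a calcium-activated potassium channel (r = 0.904), out of 14855 genes over 8 libraries. That mean was taken without scaling, so Zic1 and Zic4, which varied most, weighed most in it. With Zic4 alone these genes correlated at 0.849 (9630013K17Rik) to 0.942 (Gm5607). With Zic5 alone they correlated at 0.230 (BC017612) to 0.668 (Kcnn2).

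The background of the RNA comparison was sparse by the fits used here. By limma on 14858 genes, 0 passed an adjusted p of 0.05 in either direction (0%), with 258 at an unadjusted p under 0.05. Counting tests gave 0 genes (edgeR, 254 unadjusted) and 4 (DESeq2). Blocking on the replicate number brought the limma calls to 74 genes (0.498%), of which 44 (0.296%) fell and 30 rose with age. The median residual SD was 0.173 without the block and 0.108 with it.

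Genes of the Hedgehog pathway and of forebrain patterning, read against a median change of 0.0015 log2 over all genes tested, did not pass that test without the block. Of 6 Gli and Glis relatives, 5 were tested, 2 higher and 3 lower, with a median of -0.09. Glis1 differed by 0.85 (standard error 0.77) and Glis3 by -0.15 (standard error 0.24), each within overlapping libraries. All 12 Hedgehog and holoprosencephaly genes were tested, 5 higher and 7 lower, with a median of -0.01. Among them Six3, a forebrain homeobox gene that acts with Shh, differed by 0.30 (standard error 0.17). Sufu, an inhibitor of Gli proteins named after its values were seen, was higher in all 3 aged than in all 3 young adult libraries, by 0.11, and was not called.

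The dorsal midline signals that share the territory of Zic genes were mostly at or near 0. Of 13 roof plate genes 10 had at most 3 reads in any C57BL/6JBabr library, Wnt1, Wnt3a, Wnt8b and Lmx1a were at 0, and 3 were tested. Msx1 differed by 0.67 (standard error 0.74) and Bmp6 by -0.33 (standard error 0.42). Of the septal and rostral list, 8 of 12 were tested, 4 in each direction, with a median of 0.0069. Vax1, a ventral forebrain homeobox gene, was the member of that list whose ages stood apart, with a young adult level of 0.08 ± 0.38 log2 RPM and an aged level of -1.03 ± 0.37 (SD, n = 3), and it was not called.

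Of the lateral ganglionic eminence list, 7 of 12 were tested with a median of -0.06. Gsx1, a homeobox gene of striatal progenitors, differed by 0.68 (standard error 0.35). It was called higher in aged NSPCs only with the block (limma, adjusted p = 0.0434). Dlx2, of interneuron progenitors, differed by -0.79 (standard error 0.60) and was not called. Sp8 and Dlx1 of that list are named after their values were seen, because all 3 aged libraries lay below all 3 young adult libraries. Sp8, a zinc finger gene of interneuron progenitors, was below the filter, at -1.04, 0.92 and -2.12 log2 RPM in young adult and -5.47, -3.79 and -3.72 log2 RPM in aged NSPCs, a difference of -3.58 (standard error 1.06). The reads were 20, 32 and 6 in young adult and 0, 2 and 3 in aged NSPCs, so this difference too depends on the 0.9 reads that stand for none. In C57BL/10 it went from -1.31 to -3.62. Dlx1 differed by -0.46 and was not called. Dlx6 and Gsx2 had at most 5 reads in any library and 0 in several, too few to order the ages. The medial ganglionic eminence list had 2 of 5 tested (Gbx2 at -0.33 and Nkx6-2 at -0.04), with a median of -0.18. The pallial list had 3 of 9 tested (Emx2 at 0.11 and Pax6 at 0.03 among them), with a median of 0.03. Tbr1, a gene of cortical projection neurons named after its values were seen, was below the filter and lower in all 3 aged libraries, with 8, 5 and 4 reads in young adult and 3, 1 and 2 in aged NSPCs, but with 6 and 8 reads in C57BL/10. Of 5 listed partners and targets of Zic proteins, 3 were tested and all 3 were lower by value, with a median of -0.14, Mdfi, an inhibitor of myogenic factors that binds Zic proteins, at -0.22 and Ephb1, an axon guidance receptor, at -0.14.

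Markers of other cells were set beside the Zic values. Of the 13 meningeal genes 4 were tested and all 4 were lower by value, with a median of -0.43. Among them Foxc1 differed by -0.52 (standard error 0.95) and Foxc2 by -0.70 (standard error 0.70), with overlapping ages. Their part in the Zic difference was not tested. Of the choroid plexus list 2 of 8 were tested, Otx2 at -0.78 (standard error 0.30) and Kcnj13 at 0.64 (standard error 0.65). None of the marker lists of NSPCs, ependymal, pericyte, endothelial, microglial, oligodendrocyte, neuronal or astrocyte genes had a gene called with or without the block. Over all genes tested the share called was 0.498% with the block and 0% without it. Their medians ran from -0.36 (microglia, 2 genes tested) to 0.12 (oligodendrocyte, 6 genes tested). Gfap, an astrocyte filament gene, was the one of them named by size whose ages stood apart, at -0.54 (standard error 0.22). Of the 7 astrocyte genes, all tested, 6 were lower by value, with a median of -0.14. They summed to 1599 to 1857 RPM in young adult and 1411 to 1458 RPM in aged libraries, without overlap, and to 1895 and 1340 RPM in C57BL/10, and their part in the Zic difference was not tested.

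For genes with a promoter window within 500 kb of a Zic gene, no tested gene was called. Over all 14858 genes tested, 0 were called without the block and 74 (0.498%) with it, so this tells little about the neighbours. Beside Zic1/Zic4 the one such gene, Gm5620, differed by -0.08. Beside Zic2/Zic5 there were 13, of which 6 were tested, with differences from -0.26 (Tmtc4) to 0.14 (A330035P11Rik).

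H3K4me3, a mark of active promoters, and H3K27me3, the mark that Polycomb complexes place on silent developmental genes, were deposited as 1 value per age and 5 kb window around each transcript start, so no spread between replicates was given. The first transcript of each gene is described. H3K27me3 was high at all 4 members, at 5.82 log2 RPM for Zic1, 5.59 for Zic4, 5.82 for Zic2 and 4.57 for Zic5 in young adult NSPCs. These levels lay at the 97.3rd to the 98.9th percentile of 25888 genes. H3K4me3 was present as well, at 4.45 for Zic1, 2.57 for Zic4, 5.52 for Zic2 and 5.66 for Zic5. These H3K4me3 levels lay at the 56.5th, 45.3rd, 79.2nd and 82.9th percentile, in that order, so that of Zic4 was below the median gene. Both marks at or above the lowest Zic level were found in 621 genes (2.40%), whose median young adult RNA was -4.82 log2 RPM.

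With age, H3K4me3 in the window of the first transcript was lower at Zic1 and Zic4 by value and H3K27me3 was higher at all 4 members by value. Zic1 H3K4me3 went from 4.45 to 3.97 log2 RPM, a difference of -0.48 that lay at the 0.556th percentile of windows above 1 log2 RPM. Zic4 H3K4me3 went from 2.57 to 2.31, a difference of -0.27 at the 2.10th percentile. The windows of Zic1 and Zic4 share 1799 bases, so these differences are not independent. Zic2 and Zic5 differed by -0.02 and 0.09. All windows above 1 log2 RPM had a median H3K4me3 difference of 0.21. Relative to that median Zic1 was at -0.68, Zic4 at -0.48, Zic2 at -0.23 and Zic5 at -0.12, so the sign at Zic5 turned. The 621 genes with both marks had a median H3K4me3 difference of 0.04, with 39.5% lower, and relative to that median Zic1 was at -0.52, Zic4 at -0.31, Zic2 at -0.06 and Zic5 at 0.05. The sign at Zic2 turned to 0.030 with the Input of each age, chromatin before the antibody step, subtracted.

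H3K27me3 differed by 0.29 at Zic1, 0.26 at Zic4, 0.22 at Zic2 and 0.27 at Zic5, beside a median of 0.04 over all windows above 1 log2 RPM. With the Input subtracted the Zic1 difference was 0.06. In the 621 genes with both marks, 88.7% had a higher H3K27me3 value in aged NSPCs, with a median of 0.12. No member passed the 1.5-fold rule for either mark, which 0.0618% of genes passed upward and 0.162% downward for H3K4me3, and 0.749% and 0.858% for H3K27me3. In its first window, Zic1 H3K4me3 passed it, lower in aged NSPCs, relative to the median of all windows (-0.68) and with the Input subtracted (-0.70). So did 0.653% and 0.518% of all genes. Zic1 did not pass it relative to the genes with both marks (-0.52).

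**Figure D2:**
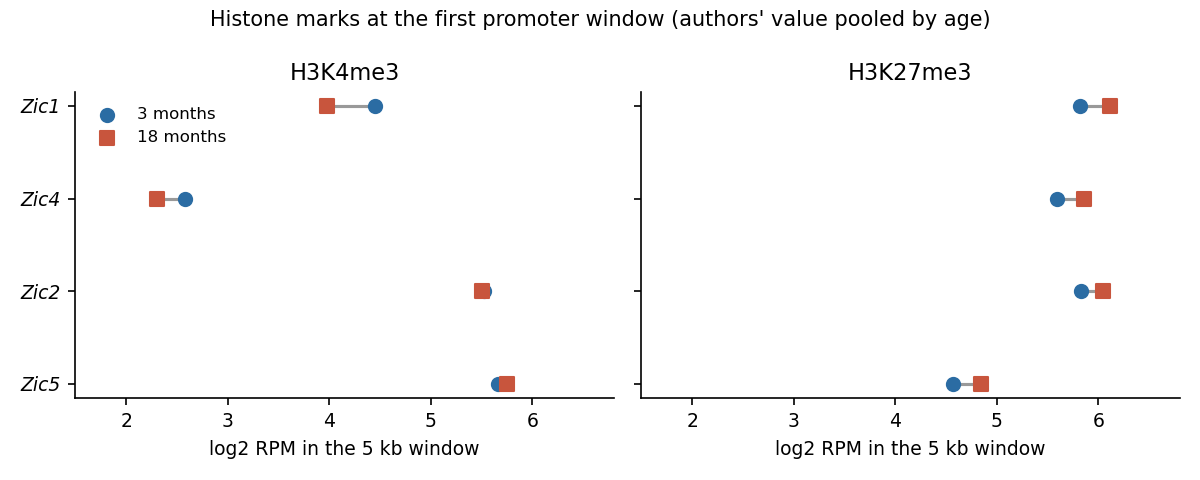
H3K4me3 and H3K27me3 in log2 RPM (x axis) in the 5 kb window of the first transcript of each Zic gene (rows) at 3 months (circles) and 18 months (squares), 1 value per age with no error. In these windows H3K4me3 moves left at Zic1 and Zic4, whose windows overlap, and little at Zic2 and Zic5. H3K27me3 moves right at all 4 genes.

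The windows of the other Zic transcripts, which overlap and are not independent, gave the same picture for H3K27me3. It was higher by value in aged NSPCs in 3 of 3 Zic1, 12 of 12 Zic4, 2 of 2 Zic2 and 2 of 2 Zic5 windows. H3K4me3 along Zic4 ran from 1.85 log2 RPM in the body of the gene to 5.01 at its most upstream start, which lies inside Zic1. There it differed by -0.36, or by -0.11 with the Input subtracted. The third Zic1 window, with the most H3K4me3 of that gene at 5.23 log2 RPM, differed by -0.33, or by -0.18 with the Input subtracted. The second Zic1 window differed by -0.46, or by -0.66 with the Input subtracted. H3K4me3 at the other Zic2 start went from 4.64 to 4.36 log2 RPM, a difference of -0.29, but the Input fell by 0.32 there, and with it subtracted the difference was 0.03. At the most downstream Zic4 start it was 4.53 in young adult and 4.52 in aged NSPCs. The second Zic5 start went from 0.91 to -0.66 log2 RPM, below the level of 1 that the rule asks for.

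**Figure D3:**
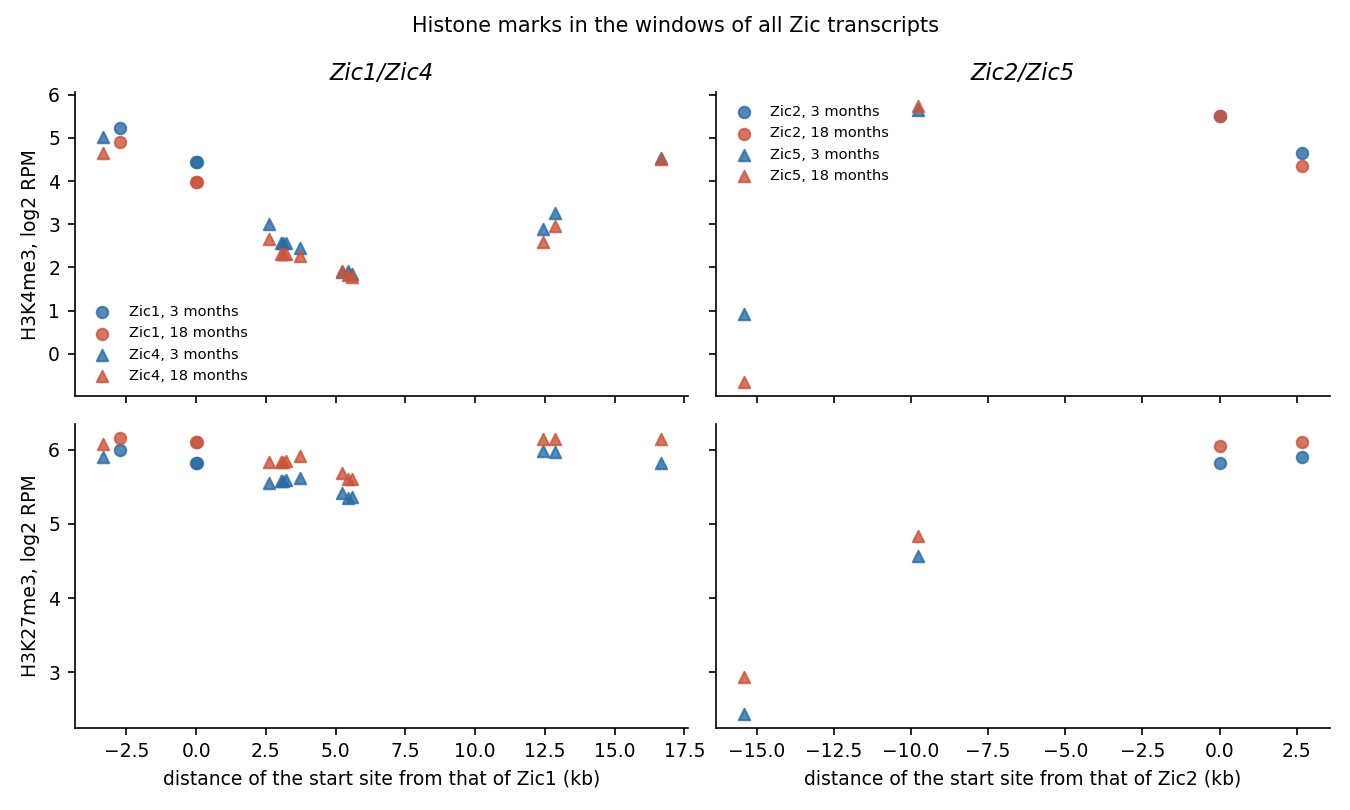
H3K4me3 (top) and H3K27me3 (bottom) in log2 RPM for the 5 kb window of every Zic transcript, against the distance in kb of its start from the Zic1 start (left) or the Zic2 start (right). Colours are ages and marker shapes are genes, with 1 value per age. H3K4me3 falls to below 2 log2 RPM within Zic4 and rises again downstream, and every aged H3K27me3 point lies above its young adult point.

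5mC was read from oxBS libraries, in which oxidation leaves 5mC alone as the protected base, as the percent of calls that were methylated in the same 5 kb windows. It was not used to choose the genes. The 4 windows had low methylation, between the 4.50th and the 32.6th percentile of all windows, whose median was 38.2%. No difference with age was called at any of the 4, and 0 of 23775 windows were called in all (0%, quasi-binomial model, 1284 at an unadjusted p under 0.05).

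The Zic1 window held 9.64%, 9.71% and 11.3% 5mC in the young adult and 6.93%, 12.6% and 19.8% in the aged libraries, from 121 to 278 calls each. The aged libraries spread to either side of the young adult ones, and the modelled difference was 1.61 points (95% interval -4.04 to 7.25). The Zic4 window, which shares 1799 bases with that of Zic1, held 28.6%, 20.3% and 25.2% in the young adult libraries and 15.5%, 31.9% and 30.8% in the aged ones. Its difference was 0.676 points (95% interval -9.58 to 10.9).

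The Zic2 window was the least methylated, with 4.48%, 3.49% and 9.43% in young adult and 9.45%, 12.1% and 10.6% in aged libraries, from 198 to 350 calls each. All aged values lay above all young adult values, the nearest pair by less than 0.1 point. The share of all windows with this order was not computed. The difference of 4.68 points (95% interval 0.403 to 8.96) was not called (quasi-binomial model, p = 0.0297, adjusted p = 0.910 over 23775 windows). In the BS libraries, which read 5mC and 5-hydroxymethylcytosine (5hmC) together, the difference at Zic2 was -1.39 points. The Zic5 window stood at 8.29%, 14.5% and 16.3% in the young adult libraries and 18.5%, 12.1% and 7.53% in the aged ones, a difference of -0.746 points (95% interval -6.80 to 5.30). The adjusted p was 0.999 for Zic1, Zic4 and Zic5 (quasi-binomial model).

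**Figure D4:**
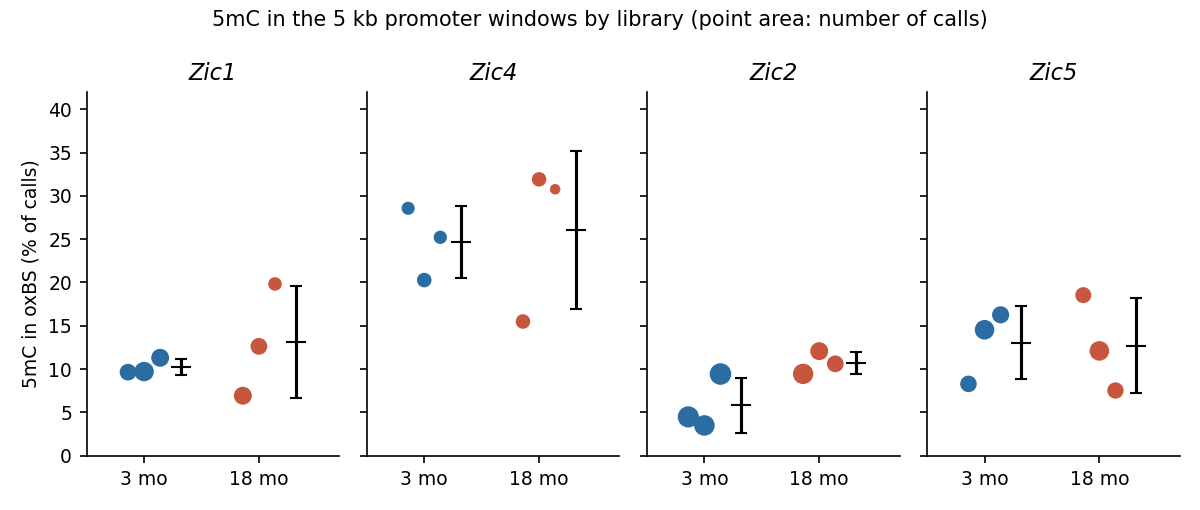
5mC as the percent of oxBS calls (y axis) in the 5 kb promoter window of each Zic gene, by library and age in months (mo), with the mean and SD of 3 libraries (bars). Point area is proportional to the number of calls. The aged points spread around the young adult points at Zic1, Zic4 and Zic5 and lie just above them at Zic2.

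5hmC, the BS minus the oxBS percent of the same derivation, averaged over the 4 windows was 3.30 ± 1.64 points for the young adult and 0.683 ± 2.99 points for the aged libraries (SD, n = 3, two-sided exact permutation p = 0.3). By window the exact permutation p was 0.7 for Zic1, 0.9 for Zic4, 0.1 for Zic2 and 0.8 for Zic5 (0.9, 0.9, 0.4 and 0.9 adjusted over the 4), and 0.1 is the smallest that 3 against 3 allows. Some of these values were below 0, down to -8.45 points, since each is a difference between separate libraries.

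Averaged over each gene pair, methylation was low, although windows within the pairs differed widely: the second Zic5 window was at 80.4% in young adult and 81.3% in aged NSPCs. Over the Zic1/Zic4 span (chr9:91358058-91389348, 31.3 kb) the young adult mean was 20.2% ± 3.78 and the aged mean 21.9% ± 4.62 (SD, n = 3, exact permutation p = 0.6). Over the Zic2/Zic5 span (chr14:122456795-122479852, 23.1 kb) it was 17.6% ± 3.75 and 20.3% ± 2.65 (SD, n = 3, exact permutation p = 0.3). In bins of 1 kb, the first kb inside Zic1 held 0% in the young adult and 3.07% in the aged libraries, and the kb before its start 5.45% and 4.55%. The bin before the Zic2 start held 0% and 1.12%. Further upstream of Zic2, the bin centred at -1.5 kb held 7.69% (143 calls) and 19.5% (87 calls). The bin centred at -2.5 kb held 53.6% (69 calls) and 68.0% (50 calls). In both, the libraries of the ages did not overlap. Single bins with at least 10 calls at each age differed, aged minus young adult, by -24.4 to 20.0 points over 59 bins at Zic1/Zic4 and by -21.1 to 31.5 points over 51 bins at Zic2/Zic5, with medians of 0 and 1.32 points. The widest, centred 12.5 kb downstream of the Zic2 start, went from 10.2% (49 calls) to 41.7% (24 calls), and the libraries of the ages did not overlap there. The bin at -21.5 kb, past the end of Zic5, went from 4.76% (147 calls) to 22.1% (86 calls), also without overlap. In the other direction, the bin centred 28.5 kb from the Zic1 start, past the end of Zic4, went from 15.5% (84 calls) to 2.11% (95 calls), again without overlap. These bins were picked with these values in view, and no single bin was tested. Of the 59 bins at Zic1/Zic4, 3 were higher and 1 was lower in aged NSPCs without overlap of the libraries. Of the 51 bins at Zic2/Zic5, 6 were higher and 1 was lower in this way. With 3 against 3 libraries the smallest two-sided exact permutation p is 0.1, so some bins are ordered this way without any age difference. The share of such bins outside these loci was not computed, so the counts are not read as a result about them. Within the RefSeq promoters printed above, 6 of 111 young adult and 0 of 14 aged calls were methylated at Zic1, 3 of 16 and 4 of 16 at Zic4, and 4 of 50 and 4 of 62 at Zic5. The depth there does not allow a comparison of the ages.

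**Figure D5:**
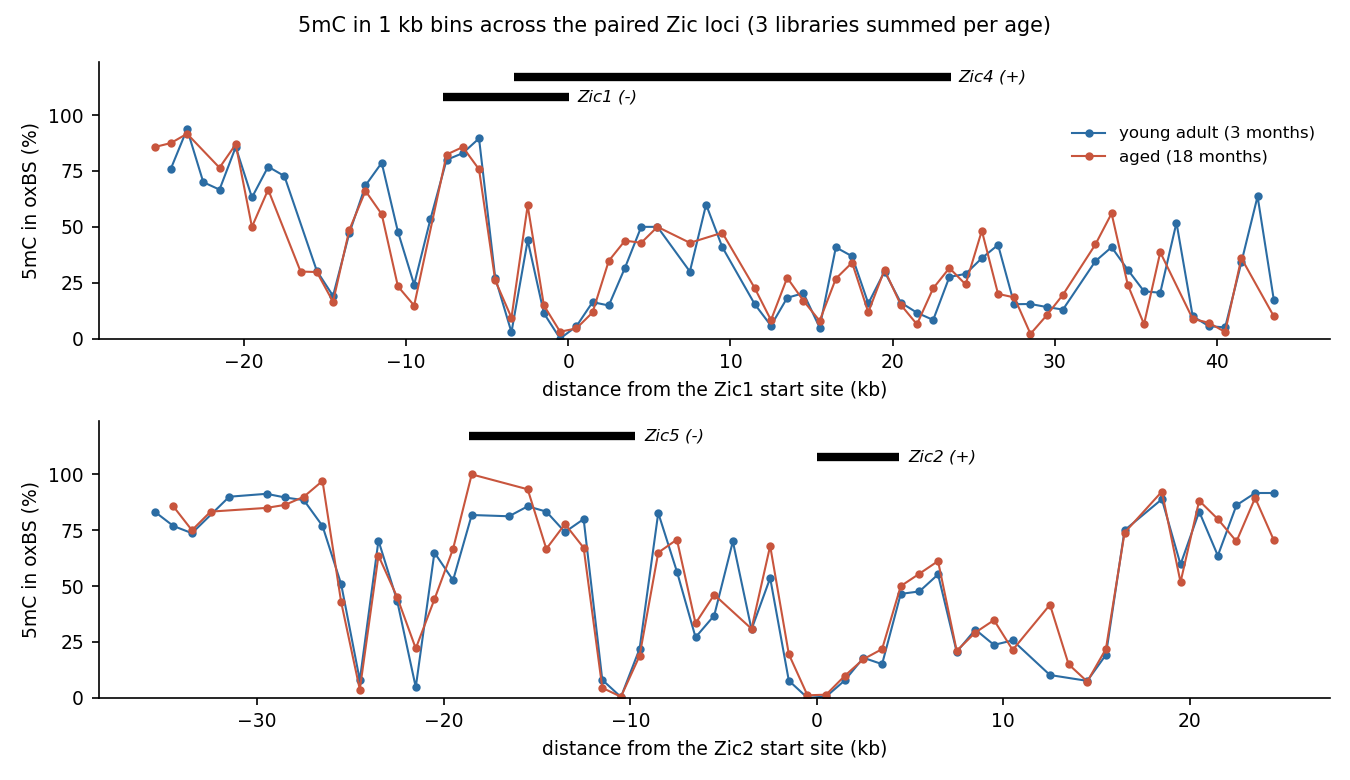
5mC as the percent of oxBS calls (y axis) in 1 kb bins, summed over 3 libraries per age and shown for bins with at least 10 calls, against the distance in kb from the Zic1 start (top) and the Zic2 start (bottom). Black bars are the genes with their strand. The profiles of both ages share their shape, with single bins up to 31.5 points apart, and are low at the Zic1 and Zic2 starts and high at the left of the Zic1 panel, past the 3′ end of Zic1, and in much of Zic5.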

How the data were processed

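RNA-seq, BS-seq, oxBS-seq and ChIP-seq of SVZ NSPCs were analysed from the deposited tables on GRCm38. The members and gene lists were chosen with earlier results of these data known. Per the labels and methods, reads were trimmed (Trim Galore), aligned with STAR (2.3.0) or Bismark (0.12.5), and the authors deposited RNA and ChIP values as log2 RPM (ChIP pooled by age) and bisulphite calls as counts of methylated and unmethylated reads per position. The part played by the other tools of the processing notes was not stated.

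Whole reads were recovered from the RNA table, where a gene with no read holds 0.9 reads, and 100% of values from 1 to 1000 reads were whole within 0.02 reads. Ages were compared with limma (3.58.1, R 4.3.3, trend on the mean, mean of at least -2 log2 RPM, Benjamini-Hochberg), and edgeR (4.0.16) and DESeq2 (1.42.0) were alternatives on the recovered reads. For methylation, 5 kb windows in which no library had fewer than 10 calls entered a quasi-binomial model, dispersion moderated across windows and at least 1, called at an adjusted p of 0.05 and 10 points. A ChIP window counted as changed at 1.5-fold and above 1 log2 RPM. The oxBS libraries held 13616283 to 21389132 calls. Intervals cover 95% and, for reads, counting error only. Both models were also run on simulated data. The simulated methylation calls had no extra spread between libraries, and the simulated RNA had no replicate effect. These runs thus do not show how the models perform on these data.

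Named genes were the members, the 2 tested genes of each list with the largest change, the 5 genes most like the members, and the neighbours within 500 kb. Some genes that this rule names are not reported here. The replicate numbers paired the RNA libraries, since the deviations of same-numbered libraries from their age means correlated at 0.730, 0.201 and 0.830 over 13280 genes. In oxBS windows these correlations were 0.0031, -0.0020 and 0.0334. Replicates are separate derivations per the methods. Alternatives were other scalings, filters, windows, tests, the replicate block and leaving out each replicate.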

Additional observations from a re-analysis of the deposited data

How the results depend on the processing

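The RNA differences of Zic1, Zic4 and Zic2 kept their direction under all 10 alternatives each other than the block, and that of Zic5 under 9 of 10. For Zic1 and Zic4, whose ages did not overlap, leaving out a replicate cannot change the direction. The genes were selected on these values, so the counts describe them and add no support. A pseudocount of 1 RPM shrank Zic1 to -1.48 and Zic4 to -0.66. Leaving out each replicate gave -3.25 to -2.26 for Zic1, -4.37 to -3.00 for Zic4, -0.78 to -0.35 for Zic2 and -0.54 to 0.02 for Zic5. The replicate block cannot change a mean over complete pairs (Zic1 -2.87, Zic4 -3.73, Zic2 -0.60, Zic5 -0.33). It took the standard error of Zic1 from 0.74 to 1.03, and moved the number of RNA genes called from 0 to 74. DESeq2 called 4, and the fits without a replicate called 0.

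For 5mC, leaving out each replicate gave -0.656 to 5.15 points at Zic1 (below 0 without aged replicate 3), 3.58 to 6.58 at Zic2, -4.03 to 7.23 at Zic4 and -3.03 to 1.29 at Zic5. In the BS libraries Zic2 was at -1.39 and Zic4 at -0.224, and Zic5 was at 0.118 as a mean over CpG positions. In windows of 1 kb on either side the differences were 0.803 points at Zic1, 0.953 at Zic2, 0.273 at Zic5 and 10.5 at Zic4 (31.4% to 41.9%, quasi-binomial model, adjusted p = 0.985). A chi-squared test on pooled calls, which ignores the spread between libraries, called 797 windows against 0, with Zic2 at an adjusted p of 0.0153 but 4.68 points, under the 10 that a call needs, and the block and the fits without a replicate called 0. The mean 5hmC difference, -2.61 points, stayed below 0 (-3.65 to -0.896 without a replicate, with these and the other 5hmC alternatives chosen after seeing the data, exact permutation p = 0.25 with the replicate block, the smallest that 3 pairs allow).

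For H3K4me3, the first Zic1 window passed 1.5-fold at -0.70 with the Input subtracted and at -0.68 relative to the median. So did 0.518% and 0.653% of all genes. This window did not pass relative to the median of the genes with both marks (-0.52, chosen after seeing the data). The third Zic1 window was at -0.18 with the Input subtracted. Zic2 turned to 0.030 with the Input subtracted and Zic5 to -0.12 relative to the median of all windows. H3K27me3 kept its direction at all 4 genes under all 3 alternatives. The causes were not tested. Depth limits Zic4 RNA most, at 0 to 26 reads per C57BL/6JBabr library, and pooled ChIP values allow no test.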
